A study of Mus musculus with 2 samples.

Results

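The Hox cluster genes were followed in long-term hematopoietic stem cells (LT-HSCs) of old mice with and without p38α. A gene was a member when its name on the array was Hoxa, Hoxb, Hoxc or Hoxd followed by a number. This rule gave 39 genes with 45 probes out of 34646 gene names on the array. They comprised 11 Hoxa, 10 Hoxb, 9 Hoxc and 9 Hoxd genes, and the symbols of all 39 were found in RefSeq. The study asked whether loss of p38α late in life changes the aging of HSCs. RNA was taken from bone marrow LT-HSCs of 2-year-old C57BL/6J mice, labelled with Cy3 and hybridized to Agilent mouse expression arrays, with 1 array for wild-type cells (p38α+/+) and 1 for cells labelled p38KO (p38αΔ/Δ). The p38αΔ/Δ mice carried CAG-CreERT2 and p38α flox/flox and had received tamoxifen (TAM) about 1 year before analysis, whereas the controls were Cre(−) floxed mice of the same age that had also received TAM. The labels give the sorted population as CD150+CD48-Flt3-CD34- LSK cells, the study's methods add CD41-, and the design description names CD34- and Flt3- LSK cells alone. CAG is a ubiquitous promoter, so that deletion was not limited to HSCs, and the number of mice behind each array is not given in the sources used here.

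Hox genes encode homeodomain transcription factors that lie in 4 clusters, and genes with the same number in different clusters are paralogs of each other. Genes of low number lie at one end of a cluster and act towards the head of the embryo, whereas genes of high number act towards the tail and in the limbs. In adult blood, members of the Hoxa and Hoxb clusters are expressed in stem and progenitor cells and are switched off during differentiation. Hox proteins bind DNA together with the TALE homeodomain proteins Pbx and Meis, and MLL and its partners maintain their transcription.

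Signals were taken as log2 intensity relative to the 75th percentile of the array, and a gene with more than 1 probe was represented by its brightest probe. A gene was called detected when this probe was well above background in the scanner software. Differences are given as p38αΔ/Δ minus p38α+/+. The ± value beside a log2 difference is the error that the scanner software assigns to the spots, combined over both arrays. It does not cover the variation among mice. Because each genotype was measured once, differences could not be set against replicate spread and were not tested. Levels are compared between the arrays for the same probe and not between genes. In bulk RNA, fewer cells of a type and less RNA per cell cannot be told apart.

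Across the series, the share of probes well above background was 67.9% for p38α+/+ and 69.0% for the other array, no spot was saturated, and both arrays lay on the same slide. Mapk14, which encodes p38α, had levels of 2.34 (p38α+/+) and 2.31, a difference of −0.04 ± 0.20, and its other probe differed by −0.05 ± 0.20. Whether these probes lie in the deleted part of the gene is not given in the sources used here, so that the genotype was not checked by its transcript and each direction given here rests on the label. The study assayed the deletion by genomic PCR in blood cells. All 11 HSC markers (among them Procr, Mecom and Kit) were detected on both arrays. Of these 11, 10 were lower on the p38αΔ/Δ-labelled array. The background, among genes detected on both arrays, was 49.1% of gene names and 7393 of 13689 protein-coding genes. The median difference of the 11 was −0.78, and their summed signal, in units of the 75th percentile, was 156 against 121. Of 10 mature myeloid markers, 8 were higher, 6 of them by 2-fold or more, where the background was 4.51% of genes detected on both arrays (median 1.10). The largest difference was 2.23 for Ltf, whereas Elane (−1.41) and Lyz2 (−0.96) were lower. Their summed signal was 218 against 298, of which Itgam, higher by 0.42, made up most on both arrays. The B cell list (7 markers) had a summed signal of 3.81 against 18.9, of which Jchain, higher by 3.75, made up most of the change. All 7 B cell markers were higher, with Ms4a1 detected on the p38αΔ/Δ-labelled array only. The 6 detected on both arrays had a median of 0.59, and 2 of them, Jchain and Cd79a (1.26), passed 2-fold. Of 24000 gene names detected on both arrays, 12215 were higher by any amount. Summed signals were 11.2 against 14.6 for the 8 erythroid markers and 17.3 against 23.1 for the 7 T and NK cell markers. They were 48.6 against 42.4 for the 6 megakaryocyte and 8.37 against 8.13 for the 11 stromal and endothelial markers. Of the 6 erythroid markers detected on both arrays, 4 were higher and 2 lower, Hbb-bt (−1.10) and Hba-a1 (−0.57). Car1, higher by 0.52, made up most of the erythroid sum on both arrays. Of the 7 T and NK cell markers, 5 were detected on both arrays, with 4 higher (Cd3e by 1.02) and 1 lower, and Cd3d and Cd3g on neither. Of the 11 stromal and endothelial markers, 7 were detected on both arrays, with 3 higher (Col1a2 by 0.64) and 4 lower (Emcn by −0.84), and Cdh5, Col1a1, Pdgfra and Prrx1 on neither. The part of these marker differences in the Hox values was not tested.

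Each Hox gene was read by 60-base probes. The probes below are shown because they lie in coding sequence of the conserved parts of Hox proteins, where paralogs are most alike, and because 2 of them gave the detection changes described further on. The capitals mark, in Hoxc11 and Hoxc12, codons of the core of the homeodomain recognition helix, in Hoxd10 a neighbouring homeodomain stretch that the Hoxc11 probe also holds (2 of 45), and, in Hoxa6, the codons of the short motif through which Hox proteins contact Pbx (1 of 45). Sequences are 5′ to 3′ as deposited, and positions are those of build mm9.
Hoxc11, chr15:102787022-102787081, plus strand: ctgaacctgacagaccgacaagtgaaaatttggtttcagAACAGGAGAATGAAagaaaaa
Hoxc12, chr15:102768889-102768948, plus strand: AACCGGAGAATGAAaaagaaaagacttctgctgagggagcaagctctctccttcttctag
Hoxd10, chr2:74532280-74532339, plus strand: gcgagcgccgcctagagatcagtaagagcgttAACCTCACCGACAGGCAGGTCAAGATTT
Hoxa6, chr6:52158194-52158253, minus strand: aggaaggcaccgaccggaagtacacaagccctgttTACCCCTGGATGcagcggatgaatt
Between probes of different Hox genes, the longest run of identical bases was 11 of 60, over 984 pairs. Probes were compared with each other and not with the transcripts of paralogs, so binding of a probe to a paralog was not tested. Of the recognition helix probes shown, that of Hoxc12 was detected on the p38α+/+ array only and that of Hoxc11 on neither.

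Of the 39 Hox genes, 26 were detected on at least 1 array and 23 on both. Those on at least 1 array were 66.7% of the members, against 76.5% of all gene names and 78.3% of protein-coding genes. For detection on both arrays the backgrounds were 69.3% and 71.9%. The p38α+/+ array detected 25 of the 39 Hox genes and the other 24, where the background among all gene names was 72.3% and 73.4%. By cluster, 9 of 11 Hoxa, 8 of 10 Hoxb, 6 of 9 Hoxc and 3 of 9 Hoxd genes were detected. By position in the cluster, 4 of 8 genes of paralog groups 1 to 3, 13 of 15 of groups 4 to 8 and 9 of 16 of groups 9 to 13 were detected. No member of paralog group 11 was detected on either array. Among the 13 undetected genes were Hoxa11, Hoxb1, Hoxb13, Hoxc10, Hoxc11, Hoxc13, Hoxd1, Hoxd3, Hoxd4, Hoxd8, Hoxd9 and Hoxd11. Detection differed between the arrays for 3 genes: Hoxb8 and Hoxc12 were detected on the p38α+/+ array only and Hoxd10 on the p38αΔ/Δ-labelled array only. Of all 26494 gene names detected on at least 1 array, 1051 were detected on the p38α+/+ array only and 1443 on the other only.

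**Figure D1:**
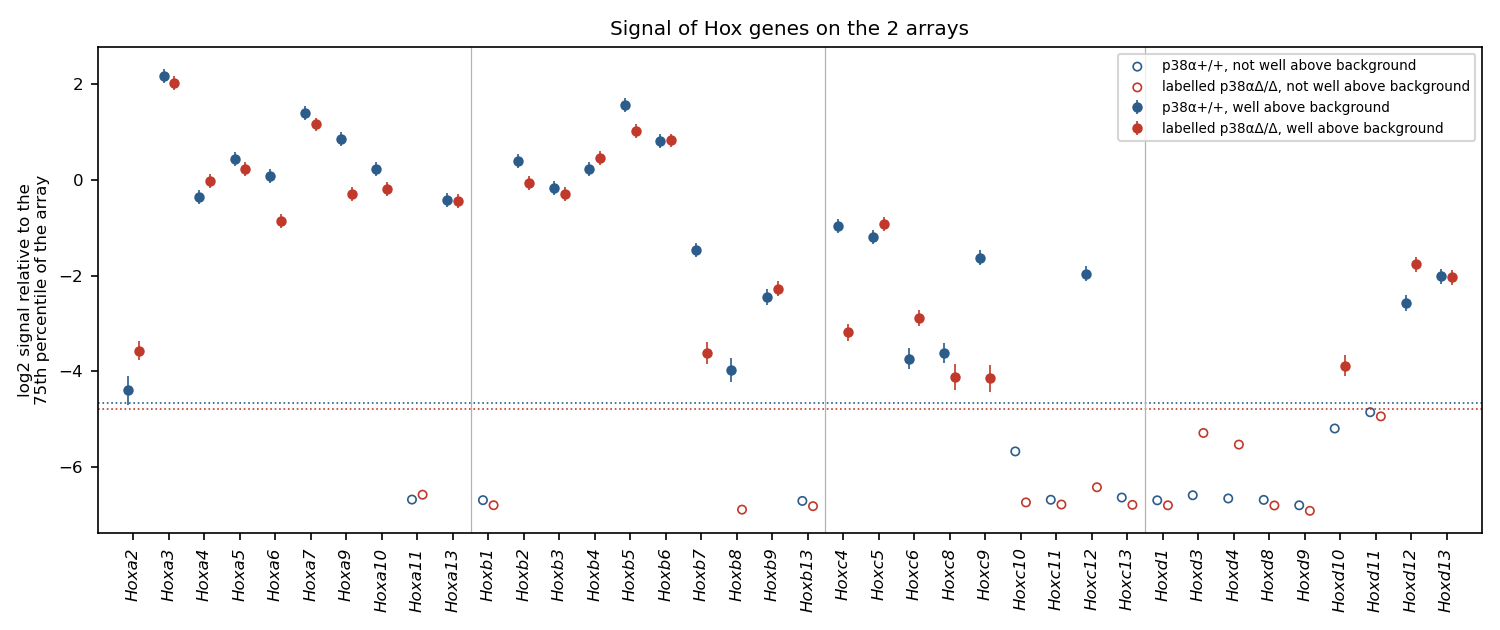
Log2 signal of the Hox genes reported here relative to the 75th percentile of its array (y axis), ordered by cluster and paralog number (x axis), on the p38α+/+ array (blue) and the p38αΔ/Δ-labelled array (red). Filled circles are well above background, with the scanner error as bars, open circles are not, and dotted lines mark the lowest signal well above background (−4.65 and −4.78). Hoxa and Hoxb genes were mostly detected on both arrays and most Hoxd genes on neither, and the gap between the arrays exceeded 2 log2 units for Hoxb7, Hoxb8, Hoxc4, Hoxc9 and Hoxc12, where Hoxb8 and Hoxc12 were undetected on the p38αΔ/Δ-labelled array.

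Expression was lower by 2-fold or more for 5 of the 26 detected Hox genes (19.2%) and higher by that amount for 0. The background over all 26494 detected gene names was 6.36% for lower and 5.52% for higher expression. Among protein-coding genes it was 6.61% and 3.77%. Lower by any amount, bounds included, were 17 of the 26, where the background was 48.5% of all gene names and 7945 of 14917 protein-coding genes. The 5 genes were Hoxa9, Hoxb7, Hoxc4, Hoxc9 and Hoxc12. Of the 23 Hox genes detected on both arrays, 15 were lower (background 49.1%) and 8 higher, 4 of them lower and 0 higher by 2-fold or more (background 4.62% and 4.51%). Of 13689 protein-coding genes detected on both arrays, 7393 were lower by any amount. The median log2 difference of the 23 Hox genes was −0.15. It was 0.01 over the 24000 gene names and −0.05 over the protein-coding genes detected on both. Of the 23, 15 differed by less than 1.5-fold, and 7 by less than the scanner error. At a threshold of 1.5-fold, 7 of the 26 detected Hox genes were lower and 4 higher, where the background was 14.4% and 15.6%.

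Hoxa9, which promotes HSC repopulation and, together with Meis1, drives leukemia when overexpressed, was the only one of the 5 with a mean signal above the median of detected genes. Its level went from 0.86 in p38α+/+ to −0.30 in the cells labelled p38αΔ/Δ (background-corrected intensities of 260 and 93.6), a difference of −1.15 ± 0.20 or 2.23-fold lower, at chr6:52174165-52174224 (mm9). The other Hoxa9 probe, at chr6:52175595-52175654, was also lower, but by −0.37 ± 0.21, from a level of −0.60 to −0.97. Both probes thus pointed the same way, and only the brighter passed 2-fold.

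Hoxb7, whose product influences myeloid differentiation, was read at −1.47 on the p38α+/+ array and −3.62 on the p38αΔ/Δ-labelled array, a difference of −2.15 ± 0.27 or 4.43-fold lower. Hoxc4, expressed in lymphoid and progenitor cells, was read at −0.96 and −3.18, a difference of −2.22 ± 0.23 or 4.67-fold lower. Hoxc9, which patterns the thoracic spinal cord, was read at −1.62 and −4.14, a difference of −2.52 ± 0.32 or 5.74-fold lower. On the second array all 3 genes lay near the bottom of the detected range, with intensities of 9.38, 12.7 and 6.51, against 51.7, 73.9 and 46.5 on the first. Hoxc12, a 5′ gene of its cluster that acts in the posterior body and limbs, had a level of −1.96 on the p38α+/+ array while the other array gave no signal well above background, which gives at least 7.07-fold lower expression.

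Each of these 4 genes has 1 probe and 1 spot per array, so no other probe could be set beside it. The bound for Hoxc12 compares the level of the bright array with the lowest signal well above background on the dim one. Genes of low signal passed 2-fold more often in general. When detected genes were divided into 4 groups by mean signal, 12.8% of the dimmest group, 8.32%, 3.31% and 0.966% of the brightest were lower by 2-fold or more, and 10.5%, 7.04%, 3.41% and 1.16% were higher. The 26 Hox genes fell into these groups as 7, 6, 12 and 1, and the 5 lower ones as 2, 2, 1 and 0. Hoxc9 and Hoxc12 were in the dimmest group, Hoxb7 and Hoxc4 in the next, and Hoxa9 in the third.

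**Figure D2:**
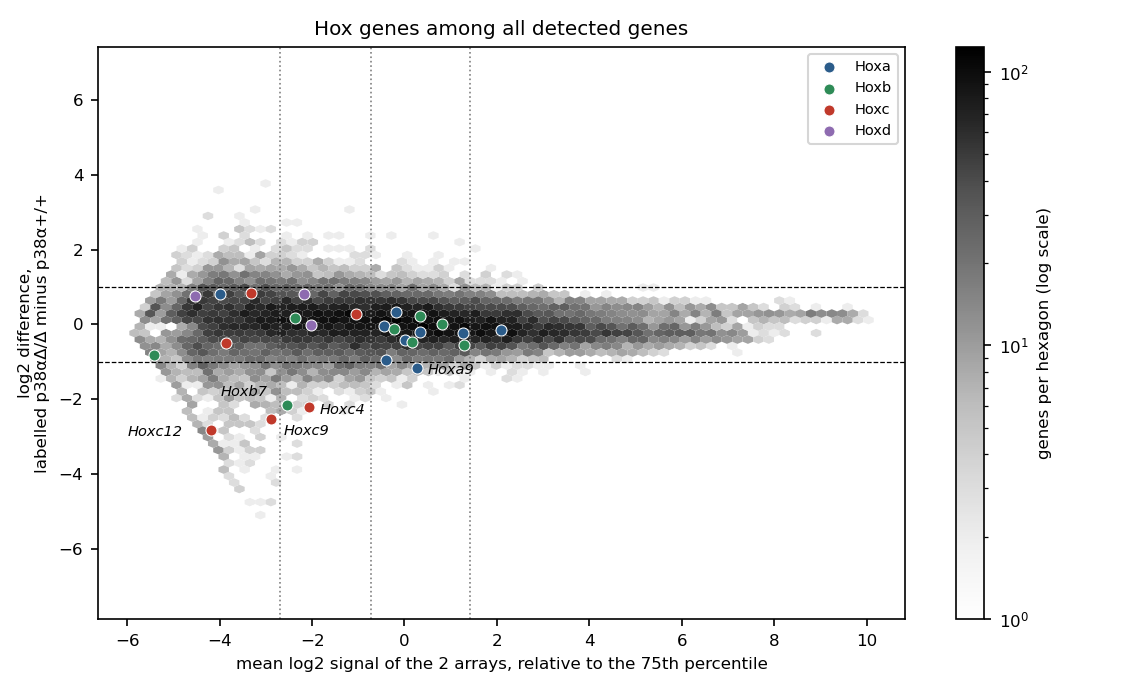
Log2 difference, p38αΔ/Δ minus p38α+/+ (y axis), against mean log2 signal relative to the 75th percentile (x axis) for all detected genes (grey hexagons, number of genes on a log scale) and the 26 detected Hox genes (coloured by cluster). Dashed lines mark 2-fold and dotted lines the borders of the 4 signal groups, and differences with an undetected side are drawn at their bound. The spread of all genes widens to the left, and 4 of the 5 named Hox genes lie in the dimmer 2 groups.

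This count depended on the offset added in background correction. With normexp and an offset of 50 in place of the scanner's correction, 0 of 26 Hox genes and 0.717% of all genes were at least 2-fold lower. The differences were then −0.90 for Hoxa9, −0.80 for Hoxc4, −0.48 for Hoxb7, −0.47 for Hoxc9 and −0.42 for Hoxc12. With normexp and no offset, a setting added after these values had been seen, 5 of 26 Hox genes and 4.69% of all genes passed, and the same 5 genes had differences of −1.13, −1.97, −1.80, −1.90 and −2.18. An added offset of 50 exceeds the intensity of most of these probes on the dim array and shrinks their log2 differences by construction.

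**Figure D3:**
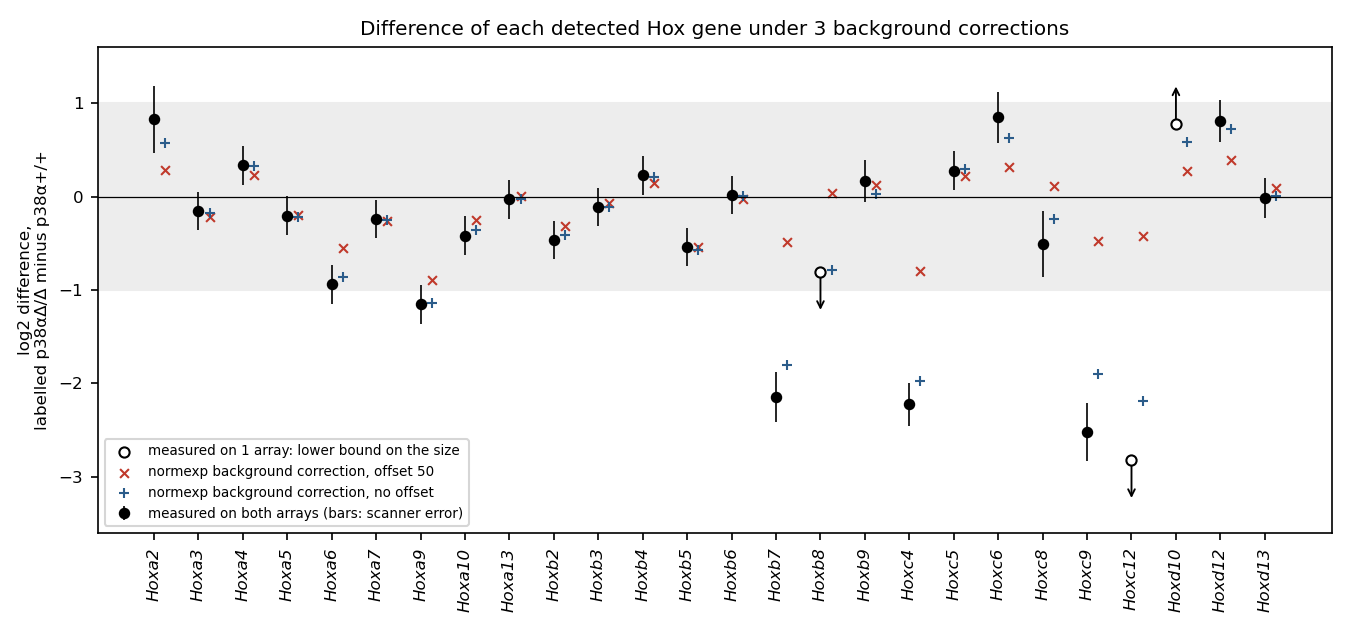
Log2 difference, p38αΔ/Δ minus p38α+/+ (y axis), of the 26 detected Hox genes (x axis). Black circles with bars are values and scanner errors under the scanner's background correction, open circles with arrows are lower bounds on the size, red crosses are values under normexp with an offset of 50 and blue plus signs under normexp with no offset. The grey band spans less than 2-fold either way: 5 black or open circles lie below it, as do 5 plus signs, whereas no red cross does.

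RefSeq promoters of build GRCm38.p6 were available for 22 of the 39 genes, among them Hoxa9 and Hoxc4, which were called lower, and Hoxb8, detected on the p38α+/+ array only. The 250 bases before their starts are shown to let a reader compare promoters of genes that were lower together, with capitals for the letters TGATNNAT, which Hox–Pbx pairs can bind, or TTTATNG, which caudal-type homeodomain proteins can bind, on either strand. The motifs were chosen after the values had been seen.
Hoxa9, chr6:52227371-52227620, minus strand: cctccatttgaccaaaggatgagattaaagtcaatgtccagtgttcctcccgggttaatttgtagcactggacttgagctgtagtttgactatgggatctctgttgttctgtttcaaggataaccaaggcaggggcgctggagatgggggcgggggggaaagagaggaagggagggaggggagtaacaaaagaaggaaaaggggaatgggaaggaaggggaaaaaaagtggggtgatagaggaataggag
Hoxc4, chr15:103034145-103034394, plus strand: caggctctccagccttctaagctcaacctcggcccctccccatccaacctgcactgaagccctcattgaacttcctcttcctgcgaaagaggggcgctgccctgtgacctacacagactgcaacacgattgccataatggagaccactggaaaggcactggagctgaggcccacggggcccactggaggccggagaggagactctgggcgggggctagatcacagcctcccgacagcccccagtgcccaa
Hoxb8, chr11:96281655-96281904, plus strand: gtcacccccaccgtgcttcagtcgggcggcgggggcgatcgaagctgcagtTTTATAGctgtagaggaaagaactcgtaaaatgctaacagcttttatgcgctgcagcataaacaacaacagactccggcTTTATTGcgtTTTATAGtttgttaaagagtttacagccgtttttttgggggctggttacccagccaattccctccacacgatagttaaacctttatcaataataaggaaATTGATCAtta
The Hoxb8 promoter held 1 match to TGATNNAT and 3 to TTTATNG, whereas those of Hoxa9 and Hoxc4 held neither. Among all 32851 promoters of the table, 7.68% held TGATNNAT and 9.81% TTTATNG. Among the 22 Hox genes, TGATNNAT was also found for Hoxa2, Hoxb1 and Hoxd11, and TTTATNG for Hoxd4. Hoxb1, Hoxd4 and Hoxd11 were undetected on both arrays.

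Within the Hoxa cluster, Hoxa6, a neighbour of Hoxa5 and Hoxa7, was next in size to Hoxa9. Its probe, shown above, went from a level of 0.08 to −0.87, a difference of −0.94 ± 0.21. Hoxa10, which supports HSC and progenitor expansion, went from 0.23 to −0.19 (−0.42 ± 0.21). Hoxa7 and Hoxa5, which are expressed in progenitors, differed by −0.24 ± 0.20 and −0.20 ± 0.20. The Hoxa genes 5 to 10 were thus all lower, by 1.15- to 2.23-fold, and only Hoxa6, Hoxa9 and Hoxa10 by more than the scanner error times 1.96. Hoxa3, a regulator of pharyngeal arch development, was read at 2.16 and 2.01 (−0.15 ± 0.20), and a dim second Hoxa3 probe was detected on the p38αΔ/Δ-labelled array only. Hoxa4 was higher by 0.33 ± 0.21, and Hoxa2, a hindbrain gene close to background on both arrays, by 0.83 ± 0.36. Hoxa13, a gene of distal limb and urogenital development, had equal levels within error at one probe (−0.42 and −0.45) and was undetected at the other.

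The Hoxb cluster holds the genes best known in HSCs. Hoxb4, whose overexpression expands HSCs, was read at 0.22 on the p38α+/+ array and 0.45 on the other, a difference of 0.23 ± 0.20. Hoxb5, a marker of LT-HSCs in mouse bone marrow, was read at 1.56 and 1.02, a difference of −0.54 ± 0.20 or 1.45-fold lower. Hoxb2 was lower by a similar amount, from 0.39 to −0.08 (−0.47 ± 0.20). Hoxb6 (0.02 ± 0.20), Hoxb9 (0.17 ± 0.22) and Hoxb3 (−0.12 ± 0.20 at the brighter probe and −0.08 ± 0.21 at the other) differed by less than the scanner error. Hoxb8, which blocks differentiation of myeloid progenitors when overexpressed and lies beside Hoxb7, had a level of −3.97 on the p38α+/+ array and was not detected on the other, which gives at least 1.75-fold lower expression. With normexp and an offset of 50 the Hoxb8 difference was 0.04.

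The Hoxc cluster was divided. Hoxc4, Hoxc9 and Hoxc12 were at least 2-fold lower, 3 of 6 detected genes, and Hoxc8, which acts in the brachial spinal cord and skeleton, was lower by −0.51 ± 0.35 at a level close to background. The sign of Hoxc8 turned with normexp and an offset of 50 (0.11). Hoxc5 and Hoxc6, which lie between Hoxc8 and Hoxc4, were higher by 0.28 ± 0.21 and 0.85 ± 0.27. Hoxc10 and Hoxc11, which lie between Hoxc12 and Hoxc9, were undetected and have no measured difference.

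In the Hoxd cluster, whose 5′ genes pattern limbs and digits, Hoxd13 had levels of −2.02 and −2.04. Hoxd12 was read at −2.58 and −1.77, higher by 0.81 ± 0.22. Hoxd10 was detected on the p38αΔ/Δ-labelled array only, at −3.88, which gives at least 1.71-fold higher expression. All 3 detected Hoxd genes lay at the 5′ end, and none of Hoxd1, Hoxd3, Hoxd4, Hoxd8 and Hoxd9 was detected on either array. By paralog group, Hoxa9 and Hoxc9 were lower while Hoxb9 was not, and in group 4 Hoxc4 was lower while Hoxa4 and Hoxb4 were slightly higher.

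**Figure D4:**
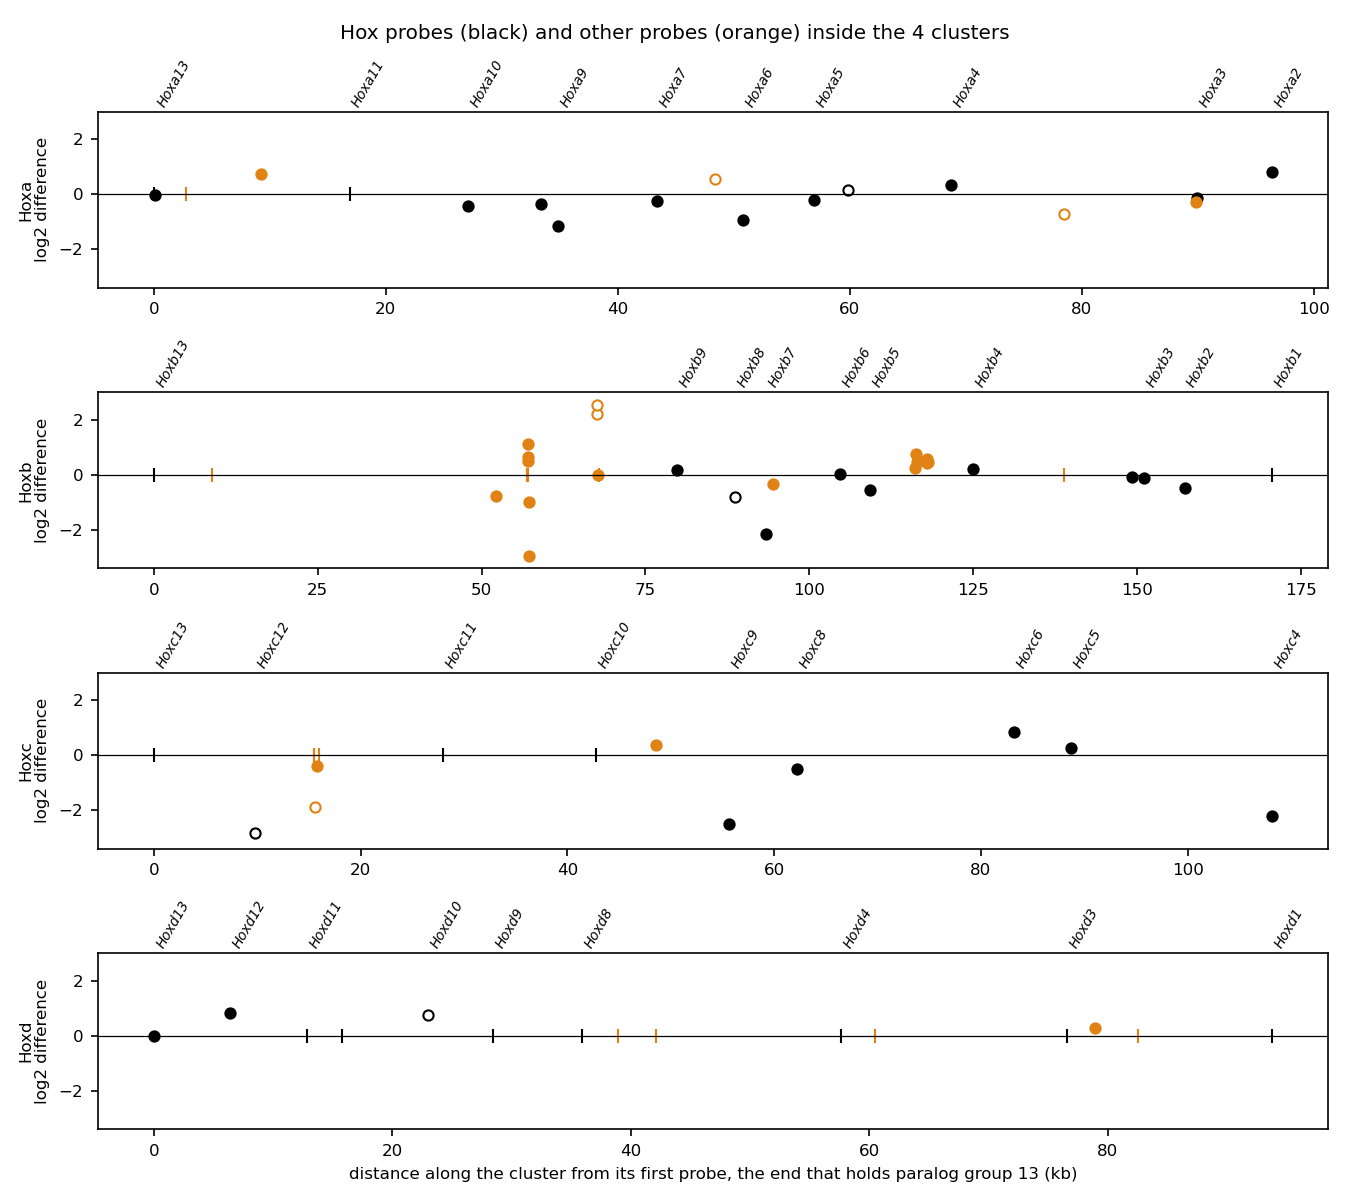
Log2 difference, p38αΔ/Δ minus p38α+/+ (y axis), of the probes reported here inside the 4 clusters against its distance from the probe nearest to the paralog group 13 end (x axis, kb). Hox probes are black and other probes orange; filled circles were detected on both arrays, open circles on 1 array and drawn at their bound, and ticks on neither. The Hox genes past 2-fold were Hoxa9, Hoxb7, Hoxc12, Hoxc9 and Hoxc4, and the Hoxa genes from Hoxa10 to Hoxa5 lay below 0 at their brightest probes.

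The partners of Hox proteins were also examined. Of 9 TALE genes, 8 were detected, and the 7 detected on both arrays had a median difference of −0.03. Meis1, the main Meis gene of HSCs, was read at 3.93 and 3.79 (−0.13 ± 0.20). Pbx3 (−0.03 ± 0.20) and Pbx2 (0.17 ± 0.20) likewise differed by less than the scanner error. Pknox1 (−0.43 ± 0.20), Pbx4 (−0.34 ± 0.20) and Meis3 (0.39 ± 0.20) differed by somewhat more. Meis2 was detected on the p38α+/+ array only, at least 5.52-fold lower on the other, and Pknox2 on neither. Pbx3, Pknox1 and Meis3 had probes that disagreed, since a second probe of Pbx3 differed by −0.71 and one of Pknox1 by 0.53. For Meis3, a dim probe differed by −0.57 ± 0.32 and another by 0.50.

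All 21 MLL and acetylation regulators, which keep Hox genes transcribed, were detected on both arrays. None passed 2-fold either way, and their median difference was −0.11. Of the 21, 14 were lower and 7 higher, where 7393 of 13689 protein-coding genes detected on both arrays were lower. The lowest were Mllt3 (−0.83), a cofactor that also counts among the HSC markers above, Mllt1 (−0.58) and Mllt6 (−0.57), and the highest Aff4 (0.80), Men1 (0.67), which tethers MLL to chromatin, and Brpf1 (0.37). Kmt2a, which encodes MLL itself, differed by −0.27 ± 0.20. Of 13 caudal and Hox-linked homeobox genes, 6 were detected on both arrays and 7, among them the Hox activators Cdx1, Cdx2 and Cdx4, on neither. The 6 had a median difference of −0.01. The lowest were Gbx1 (−0.14), Gbx2 (−0.10) and Pdx1 (−0.05), and the highest Gsx1 (0.67), Evx2 (0.21), which borders the Hoxd cluster, and Gsx2 (0.03). A second Gsx2 probe detected on both arrays differed by −0.70 ± 0.23, and a dim one of Evx2 by 0.84 ± 0.33.

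Of 10 genes described as targets of Hoxa9 and Meis1, all were detected on both arrays, with a median difference of −0.07. At least 2-fold lower were Pim1, a survival kinase (−1.29 ± 0.21), and Erg, a transcription factor needed for HSC maintenance (−1.01 ± 0.20), and none was at least 2-fold higher. Cdk6 was next (−0.44 ± 0.21). The highest were Flt3 (0.36 ± 0.22), Bcl2 (0.23 ± 0.20) and Myb (0.04 ± 0.20). Flt3 had probes that disagreed, since others differed by 0.88 ± 0.23 and −0.07 ± 0.24. Among all genes detected on both arrays, 4.62% were lower by 2-fold or more, and the share of 2 in 10 was not tested.

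**Figure D5:**
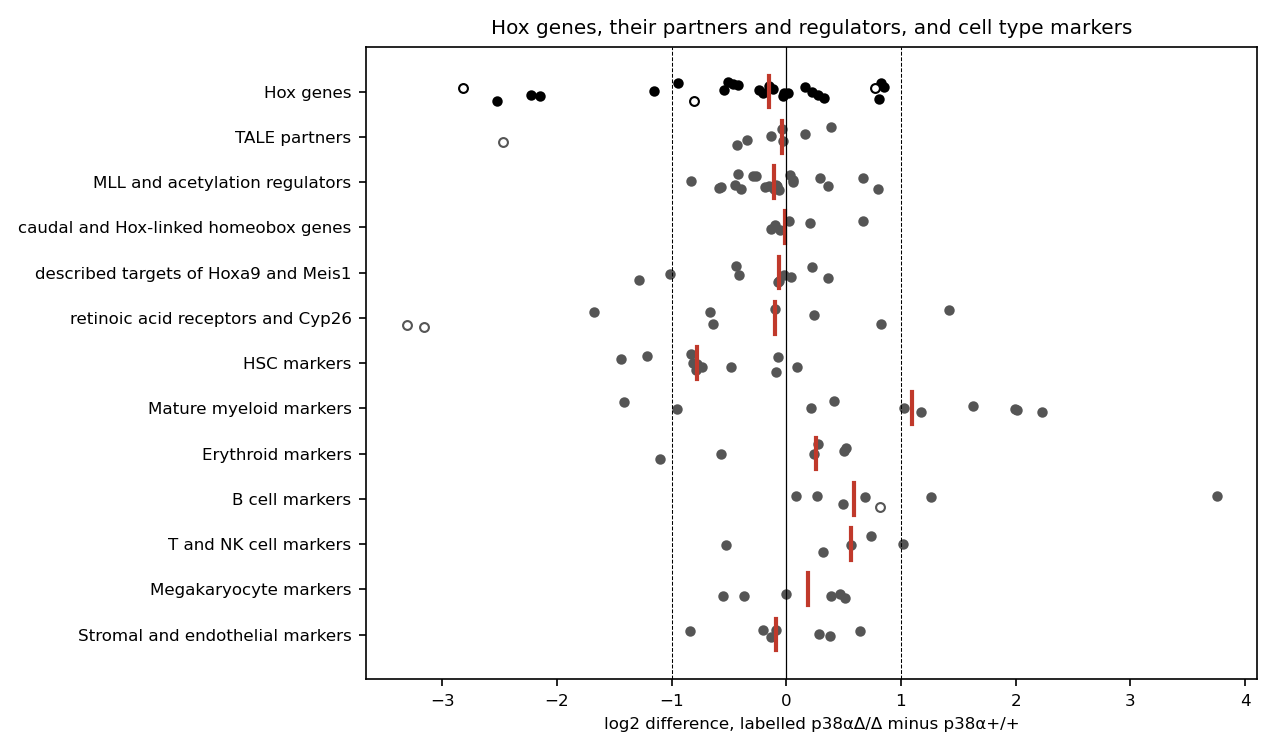
Log2 difference, p38αΔ/Δ minus p38α+/+ (x axis), of each detected gene of the Hox clusters, of the partner, regulator and target lists and of the cell type marker lists (y axis). Filled circles were detected on both arrays, open circles on 1 array and drawn at their bound, red bars mark the median of the filled circles, dashed lines mark 2-fold, and vertical scatter within a list has no meaning. The Hox median (−0.15) lay near those of several lists, such as the regulators (−0.11), the retinoic acid receptor and Cyp26 genes (−0.10) and the stromal and endothelial markers (−0.09). The lowest median was that of the HSC markers (−0.78) and the highest that of the mature myeloid markers (1.10).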

How the data were processed

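The deposited spot intensity was background-corrected with Agilent Feature Extraction 11.5.1.1, as named in the submitters' processing notes. The authors also deposited log2 values of 35795 probes, which equal the log2 intensity minus 7.16 (p38α+/+) or 6.84, with a median of −0.79 in both columns. Hybridization and normalization were outsourced. Control and outlier spots were left out, which kept 55662 probes, spots of a probe were averaged on the log2 scale, and the 75th percentile of the array (7.16 and 6.85) was subtracted. The brightest probe stood for a gene. Where a gene was undetected on 1 array, its signal there was set to no less than the dimmest probe called well above background, so that the fold is a lower bound. The number of arrays limits the precision. Repeated spots of a probe had a median standard deviation of 0.13 on each array, 0.24 and 0.25 in the dimmest of 4 groups of detected probes. Samples were grouped by their genotype labels. The members and gene lists were chosen with earlier results of these data known. The signal groups and sequence motifs were chosen after the values were seen. Every detected Hox gene, the TALE genes and, of the other gene lists, up to 3 of the lowest and highest differences were to be named; other names, such as Kmt2a, Procr and Jchain, and the marker genes at background were picked after their values were seen. Alternatives were other scalings, background corrections, filters, floors, probe rules, detection flags and a 1.5-fold threshold. Some genes and 1 probe sequence are not reported here. The functions were tested on simulated data. Python 3.11.15, pandas 2.3.3, R 4.3.3 and limma 3.58.1 were used.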

Additional observations from a re-analysis of the deposited data

How the results depend on the processing

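With 1 array per genotype no replicate could be left out, and no depth beyond the scanner error can be stated. No paired analysis was possible because each group holds 1 array. The count of Hox genes at least 2-fold lower was 5 of 26, and normexp with an offset of 50 gave 0. Over the other alternatives that kept this threshold and a detection filter, it ran from 4 to 6, of 23 or 26 genes. The background there ran from 4.58% to 7.26% of all genes. With no filter on detection the count was 7 of 39 (background 7.67%), and at 1.5-fold it was 7 of 26 (14.4%). The count at least 2-fold higher was 0 of 26. It became 1 of 26 with no floor (Hoxd10, background 7.36%), 3 of 39 with no filter on detection (7.97%) and 4 of 26 at 1.5-fold (15.6%). The median difference of −0.15 ran from −0.17 to −0.07. The count of detected genes was 26 and ran from 25 to 31. Of 254 recomputed gene values, 233 moved by less than the scanner error and 21 by more, and none of the 5 lower genes changed direction. Among the other detected genes, the sign turned in some alternative for Hoxa3, Hoxa13, Hoxb6, Hoxb8, Hoxc8 and Hoxd13.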

Other observations

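Inside the clusters lay 38 probes for other transcripts, of which 21 were detected on the p38α+/+ array, 22 on the p38αΔ/Δ-labelled array and 19 on both. The 19 had a median log2 difference of 0.37, with 7 lower and 12 higher, where 49.1% of all gene names detected on both arrays were lower. That share is not a like measure, since it takes each gene once at its brightest probe. It also includes protein-coding genes, of which 7393 of 13689 were lower. Between Hoxb5 and Hoxb4, 6 probes for transcripts of the same strand (chr11:96173931-96176029, mm9) were all higher, by 0.24 to 0.75, 5 of them by over 1.96 scanner errors, beside Hoxb5 at −0.54 and Hoxb4 at 0.23. The 6 probes cover 2 stretches and are not independent. Opposite the Hoxa genes, the antisense transcript Hoxa11os was higher by 0.75 ± 0.21, while Hoxa11 was undetected. On the same strand, 5730446D14Rik was lower by −0.27 ± 0.20 and ENSMUST00000070587 was detected on the p38α+/+ array only. Of 5 probes for HOTAIR, a noncoding RNA of the Hoxc cluster, 1 was detected on both arrays (−0.40 ± 0.30), 1 on the p38α+/+ array only and 3 on neither. Beyond Hoxb9 a pair of probes with the same position, one of them named Gm53, was detected on the p38αΔ/Δ-labelled array only, at −2.13 and −2.43. The other probe of the pair was named by an annotated region. A further probe for that region was detected on both arrays, at −2.00 and −2.01 (−0.02 ± 0.21), and another on neither. Probes for 1 annotated region could disagree, since 3 reverse-strand probes near Hoxb9 ranged from −2.98 to 1.13.

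Retinoic acid activates 3′ Hox genes during development. Of 9 genes for its receptors and the degrading Cyp26 enzymes, 7 were detected on both arrays and Rara and Cyp26c1 on the p38α+/+ array only, at least 8.95-fold and 9.92-fold lower on the other. Among the 7, the lowest were Cyp26a1 (−1.68 ± 0.28), Cyp26b1 (−0.67 ± 0.20) and Rarg (−0.64 ± 0.22), and the highest Rxrg (1.42 ± 0.21), Rarb (0.83 ± 0.21) and Rxrb (0.24 ± 0.20). Their median of −0.10 changed sign with the mean of all probes (0.13) and with normexp and an offset of 50 (0.06).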
